A study of Mus musculus with 4 samples.

Results

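The NMDA receptor subunit genes Grin1, Grin2a, Grin2b, Grin2c, Grin2d, Grin3a and Grin3b were taken by symbol from the exon counts of mouse cerebellum at postnatal day 14 (P14). All 7 were found among the 55341 genes counted, and all 7 were among the 16617 genes that passed the filter on low counts. The mice were littermates of 2 genotypes. WT mice (2) were Kdm6b fl/fl and had no Cre, and the Kdm6b-cKO mice (2, hereafter cKO) had Atoh1-Cre as well as Kdm6b fl/fl. Both groups thus carried the loxP-flanked Kdm6b alleles, and each library was the cerebellum of 1 mouse. Kdm6b encodes a demethylase of lysine 27 of histone H3. The Atoh1 driver acts in granule neuron precursors and in other cells of the rhombic lip lineage, unipolar brush cells among them, and the files do not measure Kdm6b by cell type.

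NMDA receptors are cation channels, and those with GluN2 subunits open only when glutamate and a co-agonist, glycine or D-serine, are both bound. Each receptor contains the obligatory GluN1 subunit (Grin1) together with GluN2 subunits (Grin2a to Grin2d), which bind glutamate and set the kinetics, magnesium block and scaffold contacts of the channel, or GluN3 subunits (Grin3a, Grin3b), which bind glycine. Young cerebellar granule neurons are known for GluN2B-containing receptors, and as they mature and receive mossy fibre synapses they come to express GluN2A and, in a way peculiar to few brain regions, GluN2C.

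Counts in genes ranged from 8811849 (cKO 2) to 9892363 (cKO 1) a library. Kdm6b was at 154, 154, 127 and 119 CPM (counts relative to the total of the library, scaled by TMM) in the order WT 1, WT 2, cKO 1, cKO 2, a fall by 0.33 on the log2 scale (SE 0.0758, adjusted p = 0.0162 in edgeR's quasi-likelihood test). These counts cover all exons of the gene in all cells of the tissue, so they do not measure the deleted exons alone. WT 1 carried the RNA pattern of a male mouse (Xist at 0.431 CPM and 4 Y-linked genes at 233 CPM in sum) and the other 3 libraries that of females (Xist from 1359 to 1599 CPM). cKO 1 held far more RNA of choroid plexus markers than the others, with 8 markers summing to 698 CPM against 35.4, 37.5 and 43.0 in WT 1, WT 2 and cKO 2. Over all tested genes the median log2 fold change was 0.00358, and 671 genes were called at an adjusted p under 0.05 (4.04% of those tested), 361 lower (2.17%) and 310 higher (1.87%) in cKO. With library size alone in place of TMM, 40.2% of the calls were lower instead of 53.8%.

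The 5′ ends of Grin2c, the member whose level passed the test, and of Grin1, the subunit common to all NMDA receptors, are shown because the enzyme deleted here acts on a histone mark that gathers at promoters rich in CG dinucleotides. They run from 250 bases before to 50 bases after the start site in RefSeq on GRCm38.p6, and CG is in capitals. Grin2c lies on the minus strand at chr11:115267194-115267493, with the start of the annotated transcript Grin2c-202, and Grin1 on the minus strand at chr2:25319138-25319437, with the start of Grin1-205.
Grin2c: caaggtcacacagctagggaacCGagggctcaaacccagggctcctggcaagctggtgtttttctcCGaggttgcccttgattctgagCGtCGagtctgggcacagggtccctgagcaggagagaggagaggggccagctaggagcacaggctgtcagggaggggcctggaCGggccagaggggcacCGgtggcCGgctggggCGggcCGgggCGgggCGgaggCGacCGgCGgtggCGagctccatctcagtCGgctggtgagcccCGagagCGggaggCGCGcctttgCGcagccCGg
Grin1: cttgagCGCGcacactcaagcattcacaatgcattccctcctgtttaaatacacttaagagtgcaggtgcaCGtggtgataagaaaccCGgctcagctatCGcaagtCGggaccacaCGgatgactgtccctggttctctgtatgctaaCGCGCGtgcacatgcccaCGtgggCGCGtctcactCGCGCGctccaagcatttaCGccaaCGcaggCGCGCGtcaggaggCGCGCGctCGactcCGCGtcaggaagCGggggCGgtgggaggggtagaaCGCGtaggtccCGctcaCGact
The Grin2c window held 22 CG and was 70.0% G and C, and the Grin1 window held 33 CG at 60.7%. Of 32851 promoter windows of the same length, 76.9% had fewer CG than Grin2c and 91.4% fewer than Grin1, against a median of 7. The Grin2d window held 12 CG and the Grin3b window 3, and neither of their start sites matched an annotated start in GENCODE. On both strands, the ETS core GGAA occurred once in the Grin2c window (it is held by 96.0% of all windows), while the NFI half-site TTGGC (46.7% of windows) and the ZIC motif CAGCAGG (10.5% of windows) had no match there. The Grin1 window had 2 matches to GGAA, 1 to TTGGC and 0 to CAGCAGG. No methylation or binding was measured in these libraries, so the windows are a description of sequence alone. Promoter windows matched 4 of the 7 members.

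Grin2c was lower in cKO, and among the 7 subunit genes its change alone passed the test. Grin2c (ENSMUSG00000020734.13, chr11:115249169-115267243, minus strand) encodes GluN2C, the subunit of mature granule neurons with weak magnesium block. It was at 402 CPM in WT 1, 369 in WT 2, 339 in cKO 1 and 253 in cKO 2, from 3730, 3421, 3361 and 2256 counts. Both cKO libraries lay below both WT libraries, and the distance between the cKO libraries (0.42 on the log2 scale) exceeded the distance between WT 2 and cKO 1. The group means were 386 ± 23.3 CPM in WT and 296 ± 60.9 in cKO (SD, n = 2), so that cKO stood at 76.6% of WT, and Grin2c fell by 0.38 on the log2 scale (SE 0.0958, adjusted p = 0.0262, edgeR). One call of 7 members compares with 4.04% of all tested genes, and 3 of the 7 had an unadjusted p under 0.05 (Grin2c, Grin2b and Grin2a), as did 16.3% of all tested genes.

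The Grin2c call depended on the tool and on single libraries. DESeq2 gave the same fold change with an adjusted p of 0.554. Its fit called 2.87% of the 11140 genes to which it gave an adjusted p, a smaller base than that of edgeR. Without WT 1, the male library, the log2 fold change was -0.32 (adjusted p = 0.0839, edgeR), and without cKO 1, the library with choroid plexus RNA, it was -0.61 (adjusted p = 0.251). Without WT 2, where the Grin2c call was not lost, the log2 fold change was -0.44, and without cKO 2 it was -0.19. All of these values had the same sign. With either cKO library left out, edgeR called 0 of all tested genes, while 2315 and 1718 genes had an unadjusted p under 0.05 without cKO 1 and without cKO 2. Whether sex pattern or choroid plexus RNA had a part in the Grin2c difference was not tested beyond these values.

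**Figure D1:**
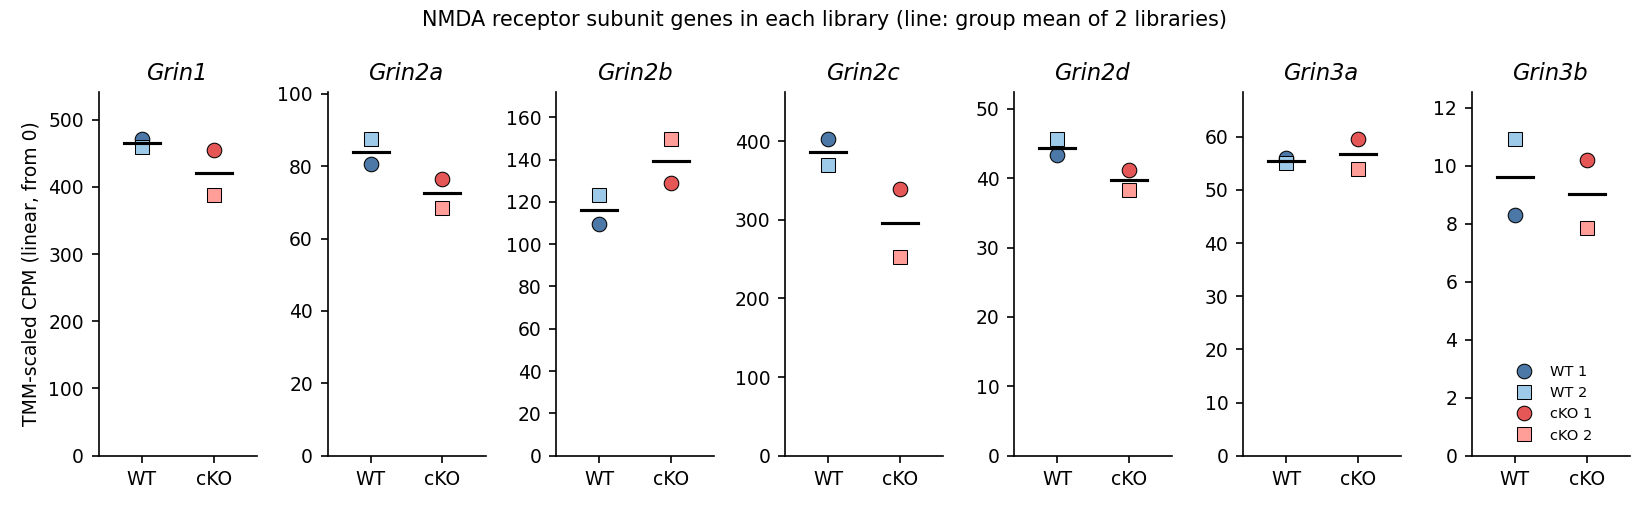
Levels of the 7 NMDA receptor subunit genes (y axis, TMM-scaled CPM on a linear scale from 0, one panel per gene) in the 2 WT and 2 cKO libraries (points), with a line at each group mean. The cKO points lie below the WT points for Grin1, Grin2a, Grin2c and Grin2d, above them for Grin2b, and among them for Grin3a and Grin3b; CPM are not corrected for gene length, so panels are not compared with each other.

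Grin2b, the gene of the GluN2B subunit of young granule neurons, moved the other way. Its level (ENSMUSG00000030209.14, chr6:135713233-136173511, minus strand) was 109 CPM in WT 1, 123 in WT 2, 129 in cKO 1 and 150 in cKO 2. Both cKO libraries were above both WT libraries, with cKO 1 close to WT 2. The means were 116 ± 9.86 CPM in WT and 139 ± 14.4 in cKO (SD, n = 2), a log2 fold change of 0.26 (SE 0.0867) that did not pass over all genes (adjusted p = 0.105, edgeR). With the replicate number as a block, Grin2b passed at an adjusted p of 0.0130, in a fit that called 6.8% of all tested genes. Replicate numbers were not shown to pair these mice.

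Grin2a, the gene of GluN2A, the other subunit that comes up with maturation and gives fast-decaying currents, was at 80.7 CPM in WT 1, 87.4 in WT 2, 76.6 in cKO 1 and 68.4 in cKO 2 (ENSMUSG00000059003.12, chr16:9567898-9995560, minus strand). The cKO libraries were both below the WT libraries. The log2 fold change of -0.21 (SE 0.0869) did not pass over all genes (adjusted p = 0.216, edgeR). Leaving out cKO 1 gave -0.29, and leaving out cKO 2 gave -0.13. Grin2d (ENSMUSG00000002771.12, chr7:45831883-45878378, minus strand), whose GluN2D subunit gives slowly decaying currents and is better known from interneurons and early development, was at 43.3 and 45.6 CPM in the WT libraries, and 41.2 (cKO 1) and 38.3 CPM (cKO 2) in the others. Its groups did not overlap either, and its log2 fold change of -0.16 (SE 0.107) had an adjusted p of 0.508 (edgeR). An antisense gene, Gm45441, shares 643 bp or 9.66% of the exon length of Grin2d and was at 10.7, 8.75, 6.85 and 8.51 CPM.

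Grin1 (ENSMUSG00000026959.13, chr2:25291181-25319187, minus strand), the subunit without which no NMDA receptor forms, was at 471 CPM in WT 1, 459 in WT 2, 455 in cKO 1 and 388 in cKO 2. WT 2 and cKO 1 were nearly level, and cKO 2 lay apart below them. The log2 fold change was -0.14 (SE 0.0767, adjusted p = 0.385, edgeR), and it was -0.03 without cKO 2. Grin1os, an antisense gene that shares 1307 bp or 13.5% of the Grin1 exon length, was at 212, 171, 174 and 173 CPM. No source used here gives the strand setting of the counts, so reads of Grin1 and Grin1os over that stretch cannot be told apart from these files.

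The GluN3 genes showed no difference beyond the spread between mice. Grin3a (ENSMUSG00000039579.15, chr4:49661611-49845744, minus strand) was at 56.0 CPM in WT 1, 55.0 in WT 2, 59.5 in cKO 1 and 54.0 in cKO 2, with overlapping groups and a log2 fold change of 0.03 (SE 0.0960, adjusted p = 0.915, edgeR). Grin3b (ENSMUSG00000035745.9, chr10:79970715-79977190, plus strand), the gene of the second GluN3 subunit and the least counted member, was at 8.31, 10.9, 10.2 and 7.84 CPM from 70 to 101 counts a library. Its groups also overlapped, and its log2 fold change of -0.09 (SE 0.222, adjusted p = 0.902, edgeR) was smaller than its SE. Tmem259 on the other strand shares 1059 bp or 32.1% of the exon length of Grin3b, and was at 146, 145, 122 and 128 CPM. Reads over that stretch cannot be told apart from these files either, and the same holds for Grin2d and Gm45441.

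Of the 7 log2 fold changes, 5 were below 0, and the median was -0.14, beside 0.00358 over all tested genes. In 4 members both cKO libraries were below both WT libraries (23.2% of all tested genes were) and in 1 both were above (23.2%), so that 5 of 7 did not overlap between groups, as 46.4% of all tested genes did not. The summed level of the 7 genes was 1171 and 1151 CPM in WT 1 and WT 2, and 1110 and 959 CPM in cKO 1 and cKO 2. Grin1 and Grin2c together gave 74.6%, 72%, 71.5% and 66.8% of these sums in the same order. The sums and shares are of CPM not corrected for gene length, so they do not rank the genes. Replicates were single mice, 2 a group, and in whole tissue fewer cells of a type and less RNA per cell cannot be told apart.

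**Figure D2:**
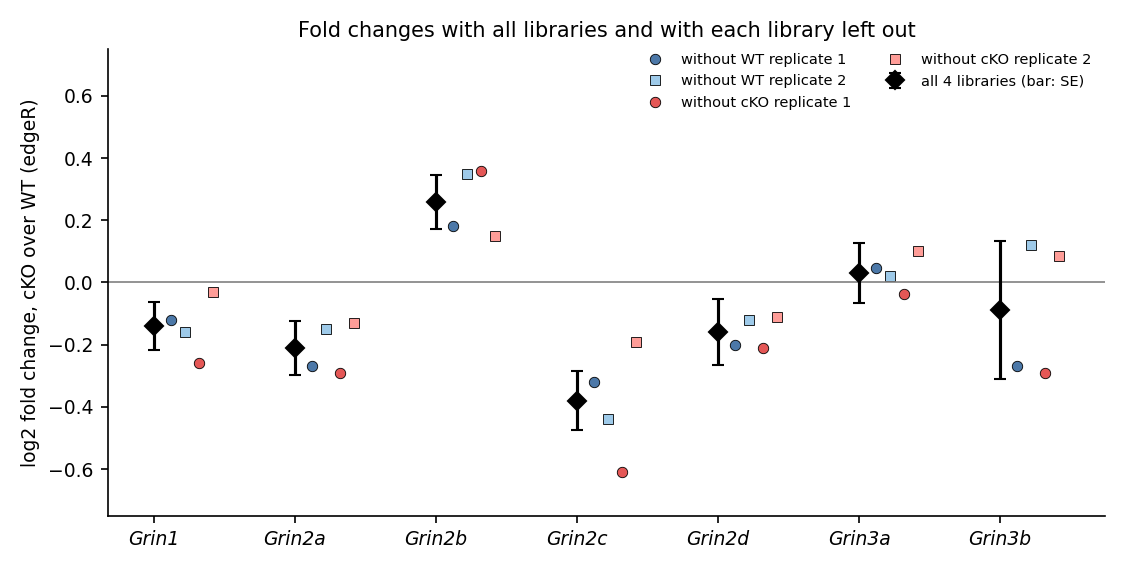
Log2 fold changes of the 7 subunit genes, cKO over WT, from edgeR (y axis), with all 4 libraries (diamonds, bars show the SE) and with each library left out in turn (coloured points). Grin2c stays below 0 (from -0.61 to -0.19) and Grin2b above 0 (from 0.15 to 0.36) in all of these fits, and Grin3a and Grin3b fall on both sides of 0.

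The balance between the mature and the young GluN2 subunit was then followed within each library, where no scaling between libraries enters. The ratio of Grin2c to Grin2b counts was 3.68 in WT 1, 3.0 in WT 2, 2.62 in cKO 1 and 1.69 in cKO 2. All cKO ratios were below all WT ratios, and the spread between the cKO mice was the wider. The ratio was 3.34 ± 0.484 in WT and 2.16 ± 0.660 in cKO (SD, n = 2), a log2 difference of -0.66 or 0.634-fold. The log2 ratio differed between replicates by 0.296 in WT and 0.635 in cKO. In an exact two-sided permutation test p = 0.333, the smallest value that 2 mice against 2 allow.

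As a share, Grin2c made up 78.6% of the Grin2c and Grin2b counts in WT 1 (95% Wilson interval 77.5 to 79.8%), 75% in WT 2 (73.7 to 76.2%), 72.4% in cKO 1 (71.1 to 73.7%) and 62.8% in cKO 2 (61.2 to 64.4%). These intervals cover counting error only. The intervals of WT 2 and cKO 1 touch at 73.7%, while those of WT 1 and WT 2 are apart, so mice of the same genotype differed by more than counting error. Leaving out each library in turn moved the log2 difference from -0.98 (without cKO 1) to -0.34 (without cKO 2).

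The ratio of Grin2a to Grin2b counts was tighter within groups. It was 0.738 in WT 1, 0.709 in WT 2, 0.593 in cKO 1 and 0.458 in cKO 2. The WT libraries were close together and both cKO libraries were below them. The means were 0.724 ± 0.0208 and 0.525 ± 0.0959 (SD, n = 2), a log2 difference of -0.47 (exact permutation p = 0.333, again the smallest possible). The share of Grin2a in the counts of the pair was 42.5% (95% Wilson interval 40.2 to 44.8%) and 41.5% (39.3 to 43.7%) in WT 1 and WT 2, and 37.2% (35.2 to 39.4%) and 31.4% (29.4 to 33.5%) in cKO 1 and cKO 2. Without cKO 1 the log2 difference was -0.66, and without cKO 2 it was -0.29. Both ratios share the Grin2b counts, so they are not separate observations of Grin2b.

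**Figure D3:**
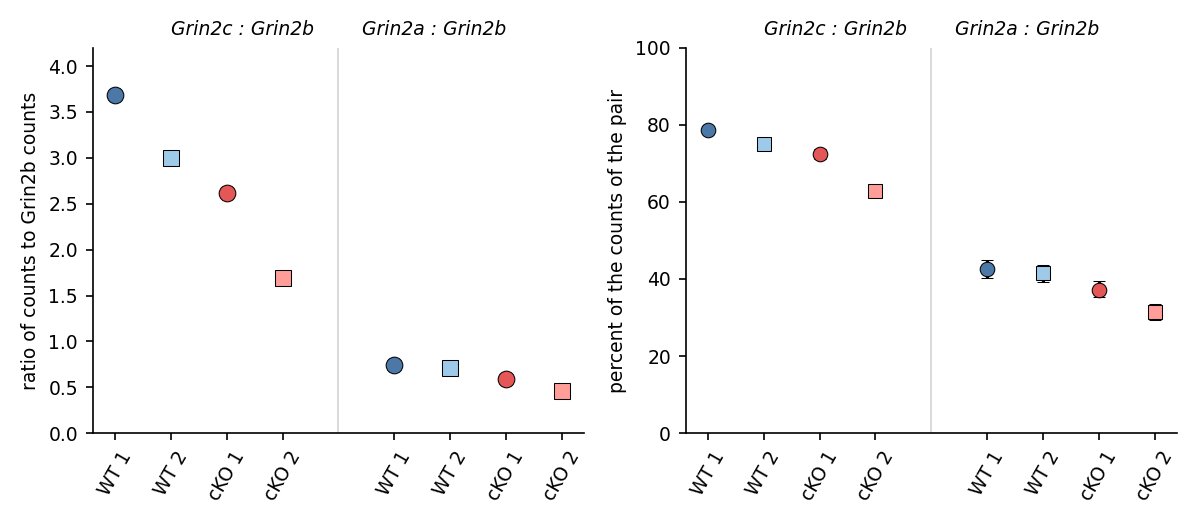
Left, counts of Grin2c and of Grin2a divided by counts of Grin2b in each library (y axis, ratio). Right, the share of Grin2c and of Grin2a in the counts of the pair with Grin2b (y axis, percent, bars are 95% Wilson intervals for counting error). From WT to cKO the Grin2c ratio goes from 3.68 and 3.0 to 2.62 and 1.69, and the Grin2a ratio from 0.738 and 0.709 to 0.593 and 0.458.

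Genes can be compared with each other only per length, and counts were therefore divided by the length of all annotated exons. Grin2c has 5037 bp of exon and Grin2b 24842 bp. On this scale Grin2c was at 76.6 ± 4.62 CPM per kb in WT (SD, n = 2) and Grin1 at 47.9 ± 0.845. Grin2d followed at 6.67 ± 0.246, Grin2a at 4.69 ± 0.263, Grin2b at 4.68 ± 0.397, Grin3a at 4.52 ± 0.0587 and Grin3b at 2.91 ± 0.558 CPM per kb. Grin2a, Grin2b and Grin3a lay within their spread of each other, and the steps above and below these 3 were wider than the SDs. The level of Grin3b was divided by its whole exon length, of which 32.1% is shared with Tmem259. The step down to Grin3b may thus depend on how reads over the shared stretch were counted, which was not tested. In cKO the levels were 58.7 ± 12.1 for Grin2c, 43.5 ± 4.88 for Grin1, 5.97 ± 0.310 for Grin2d, 5.61 ± 0.581 for Grin2b, 4.62 ± 0.315 for Grin3a, 4.04 ± 0.322 for Grin2a and 2.73 ± 0.502 for Grin3b.

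Grin2c was the main GluN2 transcript per length in all 4 libraries. Of the counts per exon length of Grin2a to Grin2d it made up 83.8% in WT 1, 81.5% in WT 2, 81.1% in cKO 1 and 76.3% in cKO 2, a difference of -3.96 percentage points between the group means (exact permutation p = 0.333). The difference was -6.37 points without cKO 1 and -1.55 points without cKO 2. Grin2b went from 4.62% and 5.51% in the WT libraries to 6.27% and 9.15% in the cKO libraries. The shares of Grin2a (4.72%, 5.41%, 5.15% and 5.80%) and Grin2d (6.82%, 7.60%, 7.47% and 8.75%) overlapped between groups.

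The choice of length sets these levels, because much of the annotated length of Grin2b and Grin2a lies outside the coding part. Per longest coding length (4446 bp for Grin2b, 3717 bp for Grin2c) Grin2c made up 66.8%, 62.7%, 61.6% and 53.6%, and Grin2b 15.2%, 17.5%, 19.6% and 26.5%, in WT 1, WT 2, cKO 1 and cKO 2. Grin2c was still the highest and cKO 2 still the library with the least of it. The order of Grin2b, Grin2a and Grin2d below it did change, with Grin2b the highest of the 3 per coding length and Grin2d the highest per exon length in WT.

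The level of GluN2 transcripts beside Grin1 was lower in cKO under each length. The sum of Grin2a to Grin2d per exon length was 1.96 and 1.90 times Grin1 in WT, and 1.77 and 1.64 times Grin1 in cKO. Per longest transcript it was 0.910 and 0.884 in WT against 0.821 and 0.767 in cKO, and per coding length 0.990 and 0.993 against 0.936 and 0.941. The groups did not overlap on any of these 3 scales (exact permutation p = 0.333 each), but whether GluN2 transcripts outnumber Grin1 depends on the length used. The 3 scales divide the same counts by different lengths, so they are not separate observations. Grin2c was the largest part of each sum, so the lower sums are not separate from its fall. Grin2c alone was 1.65 and 1.55 times Grin1 per exon length in WT, and 1.43 and 1.25 times in cKO. Grin3a per exon length was 0.0940 and 0.0946 of Grin1 in WT and 0.103 and 0.110 in cKO, where Grin1 is the gene with the larger difference.

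**Figure D4:**
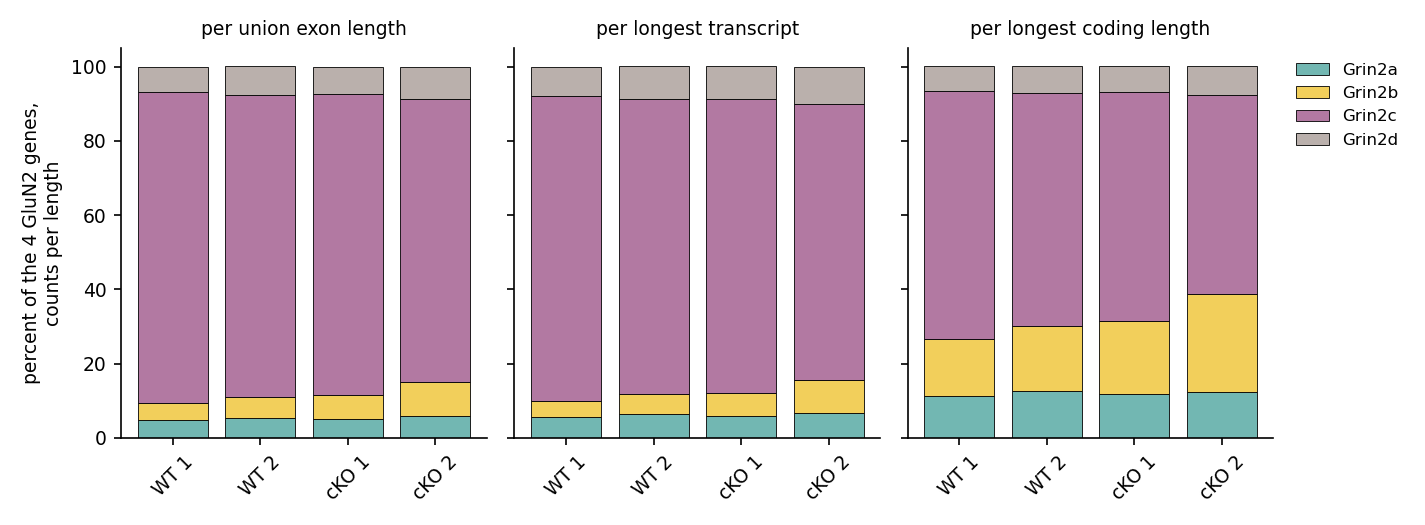
Make-up of the 4 GluN2 genes in each library as percent of their summed counts per length (y axis), with counts divided by the union of annotated exons (left), the longest transcript (middle) or the longest coding length (right). Grin2c takes the largest share of every bar, from 83.8% in WT 1 to 76.3% in cKO 2 per exon length, and the Grin2b share is larger in both cKO libraries.

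Grin2c was set beside other genes of the cells that express it. Of 15 mature granule neuron markers, 10 fell, 1 rose and 4 did not pass, with a median log2 fold change of -0.32, against -0.38 for Grin2c. Grm4, a metabotropic glutamate receptor of parallel fibre terminals, fell by 0.61 on the log2 scale (adjusted p = 2.82e-05, edgeR), and Gabra6, the GABA-A receptor subunit of granule neurons, fell by 0.44 (adjusted p = 0.000776). The marker that rose was Kcnk9, a two-pore potassium channel, at 377 and 346 CPM in WT and 520 and 462 CPM in cKO. The 15 markers summed to 9652 and 9937 CPM in WT and 8611 and 7691 CPM in cKO.

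Relative to that sum, Grin2c was at 4.17% in WT 1, 3.72% in WT 2, 3.93% in cKO 1 and 3.29% in cKO 2. The groups overlapped on this scale, with a log2 difference of -0.13 (exact permutation p = 0.667) and a replicate distance of 0.165 in WT and 0.260 in cKO. The log2 difference was -0.26 without cKO 1 and -0.00084 without cKO 2, and the smallest p that 2 mice against 2 allow is 0.333, so this test could not have passed the threshold at any size of difference.

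Markers of younger cells were higher in cKO. Of 14 markers of newborn granule neurons 9 rose and 0 fell in edgeR (median log2 fold change 0.58), and DESeq2 called 5. Among those that rose were Sox11 at 1.13 (adjusted p = 5.07e-06, edgeR), a transcription factor of newborn neurons, and Cd24a at 1.22 (adjusted p = 1.92e-05, edgeR), a surface protein of newborn neurons. Of 12 tested genes of progenitors and proliferation 4 rose (median 0.34), with Barhl1 at 0.93 and Ccnd2 at 0.93, while DESeq2 called 0 of them and Ccnd2 was at 0.60 without cKO 2. The newborn markers summed to 2735 and 2877 CPM in WT, 3299 in cKO 1 and 3920 in cKO 2, and those of progenitors and proliferation to 432, 471, 502 and 618 CPM. In both sums cKO 2 was the highest library, and it was the library with the lowest Grin2c and the highest Grin2b. Their part in the subunit differences was not tested.

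Among other cell types, unipolar brush cell markers fell in 3 of 6 in edgeR (median -0.36). DESeq2 called 2 of the 6, Calb2 (adjusted p = 0.000251) and Plcb4 (adjusted p = 0.0438). Eomes fell by 0.91 in edgeR and was not called by DESeq2 (adjusted p = 0.142). Astrocyte and Bergmann glia markers fell in 3 of 10 with 1 higher (median -0.17). Oligodendrocyte markers fell in 2 of 10 (median -0.10), and Purkinje cell markers in 1 of 10 with 1 higher (median -0.13). Of 10 interneuron and Golgi cell markers, 5 tested microglia markers and 6 endothelial and mural markers, edgeR and DESeq2 called 0, with an unadjusted p under 0.05 for 3, 0 and 0. Their medians were -0.13, 0.04 and 0.03 in the same order. All 10 interneuron and Golgi cell markers had a log2 fold change below 0, as had 49.3% of all tested genes. Of 5 tested choroid plexus markers 3 were called higher by edgeR and 1 by DESeq2, on the strength of cKO 1 (Ttr, the transthyretin gene, at 609 CPM there and 13.9 in cKO 2).

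The other ionotropic glutamate receptor subunits differed little. Of the 11 AMPA, kainate and delta receptor genes, edgeR, DESeq2 and limma-voom called 0, and 1 had an unadjusted p under 0.05 (Gria1, an AMPA receptor subunit, log2 fold change -0.18, adjusted p = 0.181). Their median log2 fold change was -0.07, beside -0.14 for the 7 NMDA receptor subunits. Their summed level was 2506 and 2480 CPM in WT and 2481 and 2362 CPM in cKO, and WT 2 and cKO 1 were level.

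Genes of proteins that hold and move the receptor changed in both directions. Of 20 scaffold genes 2 rose, 2 fell and 16 did not pass (median -0.06). Dlgap1, which links PSD-95 to Shank proteins, fell by 0.38 (adjusted p = 0.00273, edgeR) and Dlg1, the gene of SAP97, fell by 0.30 (adjusted p = 0.0328). Dlg3, the gene of SAP102, a scaffold of young synapses, rose by 0.31 (adjusted p = 0.0247). Of 18 trafficking and surface partners Lin7c passed in edgeR, a PDZ adaptor of receptor transport (0.26, adjusted p = 0.0451), and the median was -0.01. DESeq2 did not call Dlg1, Dlg3 or Lin7c (adjusted p = 0.104, 0.0599 and 0.108), and edgeR did not call them without WT 1 (adjusted p = 0.232, 0.323 and 0.379) or without WT 2 (0.172, 0.0898 and 0.269).

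Downstream of the channel, 1 of 26 tested signalling and phosphorylation genes passed (median 0.02). It was Rasgrf1, a calcium-responsive Ras exchange factor, at 183 and 157 CPM in WT and 118 and 104 CPM in cKO (fell by 0.62, adjusted p = 0.0002, edgeR). Ppp1ca, also on this list, was listed at 0 in all 4 libraries, and no level is drawn from it.

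Among genes that supply or remove glutamate and co-agonists, 4 of 18 fell and 1 rose (median -0.02). The vesicular transporter Slc17a7 of parallel fibre terminals, also one of the 15 mature granule neuron markers, fell by 0.43 (adjusted p = 0.00475, edgeR). DESeq2 did not call it (adjusted p = 0.184), and its log2 fold change was -0.60 without cKO 1 and -0.28 without cKO 2. Lower levels were also called for the glial uptake carriers Slc1a3 (by 0.30, adjusted p = 0.0119, edgeR) and Slc1a2 (by 0.26, adjusted p = 0.0488, edgeR, just under the threshold). Dao, the oxidase that degrades D-serine, was at 27.6 and 34.6 CPM in WT and 18.5 and 19.8 CPM in cKO (fell by 0.70, adjusted p = 0.00601). Slc1a6, the Purkinje cell glutamate carrier, rose by 0.29 (adjusted p = 0.0166). In edgeR, Slc1a6 lost its call without WT 1 or WT 2 (adjusted p = 0.106 and 0.277), Slc1a3 without WT 1 (0.0602) and Dao without WT 2 (0.107). Of 20 regulators tied to NMDA subunit genes in granule neurons 2 rose and 1 fell (median 0.00). Etv1, an ETS factor of maturing granule neurons that is also among their markers, was at 567 and 551 CPM in WT and 444 and 388 CPM in cKO (fell by 0.43, adjusted p = 0.00162), while the NFI factor Nfib rose by 0.38 (adjusted p = 0.00322) and Ezh2, a methyltransferase of lysine 27 of histone H3, rose by 0.65 (adjusted p = 0.0111, and 0.0887 without WT 1).

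**Figure D5:**
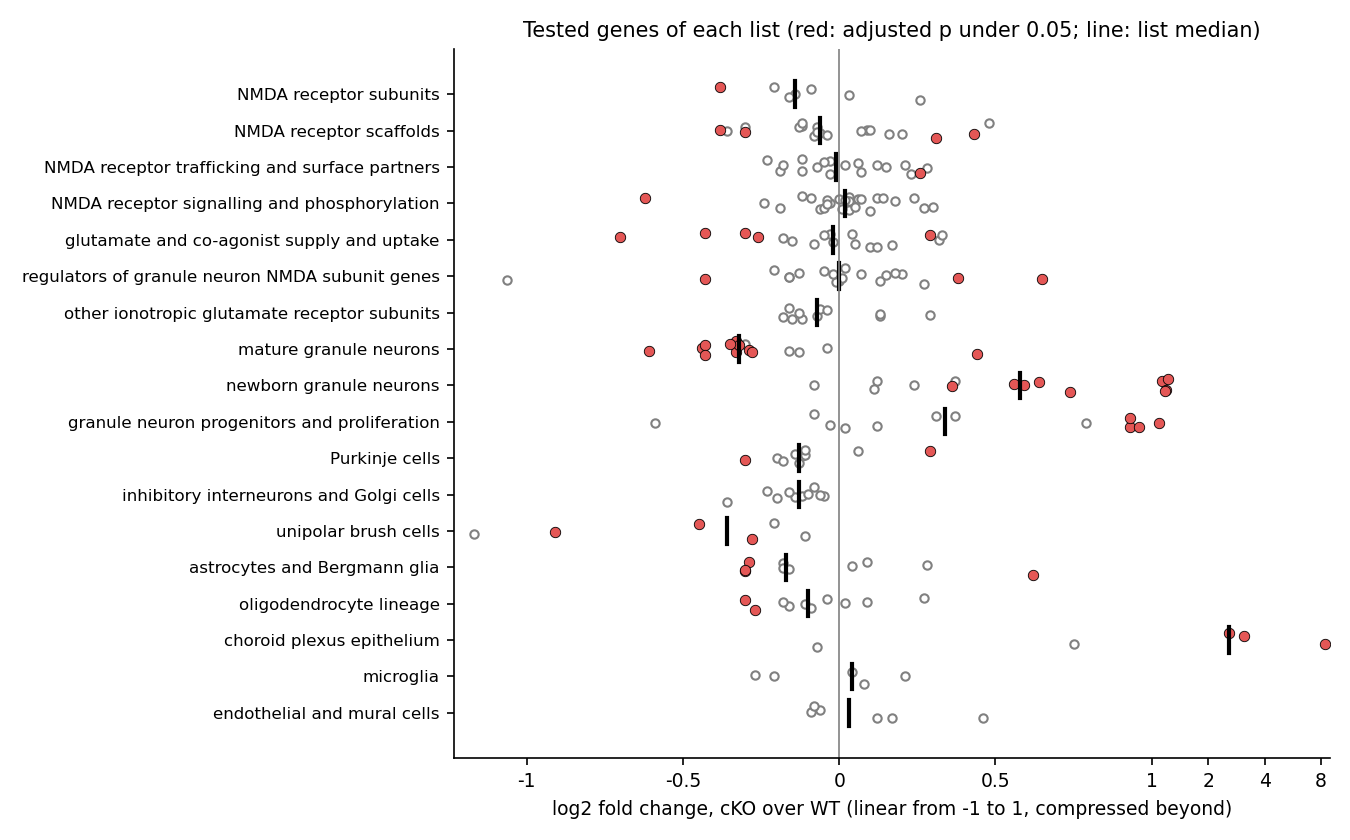
Log2 fold changes, cKO over WT (x axis, linear from -1 to 1 and compressed beyond), of the tested genes of each list (rows). Red points have an edgeR adjusted p under 0.05, open points do not, and the line is the list median, which is -0.14 for the NMDA receptor subunits, -0.32 for mature and 0.58 for newborn granule neuron markers.

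Across the 4 libraries the genes whose pattern of level was most like that of Grin2c were Ogfod1, BC065403 and Cyp2d22, with root mean square differences of 0.0201, 0.0226 and 0.0230 in centred log2 CPM among 11057 genes compared. Ogfod1 was at 59.0, 55.6, 51.6 and 37.9 CPM, WT libraries first. Those most like Grin2b were Lama1, Rpl15 and Wdr38 (0.0143, 0.0148 and 0.0148), with Rpl15 at 111, 124, 128 and 149 CPM. With 4 points a pattern, near matches are many, and these are named as a description only.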

How the data were processed

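Polyadenylated RNA of P14 cerebellum was sequenced as paired ends of 150 bp. Per the methods and processing notes, reads went through Trimmomatic 0.38 and STAR 2.7.2b (mm10) and were counted by HTSeq over exons of a GENCODE GRCm38 annotation. The authors deposited whole-number counts per gene, not normalised. Genes held 39.0% to 40.5% of the entries, and the totals that name no gene were left out. Entries that fell in no counted feature made up 48.8% (cKO 2) to 49.6% (WT 1), and ambiguous ones 0.805% (cKO 1) to 0.917% (WT 2). Their relation to the strand setting was not tested.

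Groups and replicate numbers came from the titles. The members and gene lists were chosen with earlier results of these data known. Genes were kept by filterByExpr of edgeR 4.0.16 (R 4.3.3), scaled by TMM and compared by its quasi-likelihood test (two-sided, Benjamini-Hochberg over all tested genes, threshold 0.05), a procedure tested on simulated data. Levels are CPM, and the SE of a log2 fold change follows from its F statistic. Ratios were compared by exact permutation over libraries. Lengths and coordinates are those of GENCODE M21 (GRCm38). From each list, up to 4 genes with the smallest p past the threshold, or otherwise 1, were named, with Slc1a2 and Ppp1ca added after their values were seen, and some list genes are not reported here by name. Alternatives were DESeq2 1.42.0, limma 3.58.1 (voom), 3 other scalings, 2 other filters, a replicate block, X and Y genes left out, and each library left out. Counts of replicates differed beyond sampling noise, with a chi-square of 3.59 (WT) and 4.02 (cKO) per degree of freedom.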

Additional observations from a re-analysis of the deposited data

How the results depend on the processing

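The count of subunit genes called (1, Grin2c) was the same with each other scaling, the CPM filter, limma-voom and X and Y genes left out. It was 0 with no filter on low counts (where 28952 genes were tested) and 0 with DESeq2, where the Grin2c log2 fold change was -0.38 each time (adjusted p = 0.196 without the filter and 0.554 with DESeq2), and the cause was not tested. With the replicate block it was 2 (Grin2c and Grin2b). Deviations of the same replicate number correlated at 0.0429 between the groups over all tested genes, so the numbers were not taken to pair mice, and the blocked fit called 1130 genes in all instead of 671. The paired mean of each ratio equals the unpaired one. Leaving out each library gave 0 to 1 subunit genes and Grin2c log2 fold changes from -0.61 to -0.19. With 1 library in a group, that library is assumed to vary like the other group, and edgeR's smallest adjusted p over all genes was then 0.237 without cKO 1 and 0.443 without cKO 2.

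Called pathway and marker genes numbered 48, 19 with no filter, 29 with DESeq2, and 0 to 41 with each library left out (0 without either cKO library). Of the genes named, Grin3a (-0.038 to 0.10), Grin3b (-0.29 to 0.12) and Cx3cr1 (-0.12 to 0.50) changed sign with a library left out, none of them called. Grin2c relative to the marker sum ranged from -0.26 (without cKO 1) to -0.00084 (without cKO 2), and was -0.13 with the mean of log2 CPM. The Grin2c share of GluN2 transcripts differed by -4.06 points per longest transcript and -7.16 per coding length, an alternative chosen after seeing the data. The coding length from a RefSeq protein table was not run. With 2 mice a group, depth limits Grin3b most.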
